A study of Mus musculus with 11 samples.

Results

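Endothelial identity genes are the 34 genes, of 56941 in the deposited table, that mark the cells lining blood vessels. Their choice, by name and for known roles, was made with earlier results of these data known. They encode junction and adhesion proteins, sialomucins, receptors for vascular growth factors, secreted and matrix proteins, selectins, transcription factors and signalling proteins. They were measured in RNA of sorted (fluorescence-activated) mouse pituitary cells that had been frozen, with the RNA amplified and enriched for poly(A). The APC-mutant group had 5 libraries, numbered 1, 2, 4, 5 and 6, whose titles also carry the word Lef1, and the wildtype group had 6, of which numbers 1 to 4 carry the prefix ROSAJC and 5 and 6 the prefix ROSAE. The labels give neither the allele, the promoter that drives any Cre, age, sex nor sort gate, and do not state if each library stands for 1 animal, so the p-values rest on library-to-library spread, which may be technical. All mutant libraries carry a name prefix that no wildtype library has, so any batch tied to it cannot be told apart from genotype.

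Endothelial cells hold together through VE-cadherin and claudin-5, respond to vascular endothelial growth factor (VEGF) and to angiopoietins through dedicated receptor tyrosine kinases, and slow passing leukocytes with selectins. Their identity depends on transcription factors of the ETS and SOXF families, some of which are shared with blood progenitors. In the anterior pituitary, portal capillaries deliver hypothalamic hormones and collect pituitary ones, and their walls have fenestrae spanned by diaphragms built from PLVAP.

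The 5 APC-mutant libraries held 18082332 to 27280761 counts, and the 6 wildtype libraries 15740857 to 25414443. Genotype was tested with edgeR's quasi-likelihood test over 20622 genes, and calls were made at an adjusted p (Benjamini-Hochberg) under 0.05. Levels are CPM, in which library totals are made comparable by edgeR's trimmed mean of M-values. Apc was not called (log2 fold change -0.03 ± 0.10 SE, adjusted p = 0.819), whereas Lef1, a WNT-pathway transcription factor, averaged 99.8 ± 24.1 CPM in APC-mutant libraries and 10.6 ± 3.82 CPM in wildtype libraries (SD; 3.23 ± 0.23, adjusted p = 4.1e-08). Calls in either direction covered 59.2% of the genes tested, made up of 30.7% higher and 28.5% lower in APC-mutant libraries.

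All 34 endothelial identity genes passed the low-count filter, and all 34 were called higher in APC-mutant libraries, against the 30.7% of tested genes called higher. None was called lower. In each of the 34 genes the lowest mutant library was above the highest wildtype library, as for 23% of tested genes. The median log2 fold change was 6.39 over the 34 genes and 0.02 over all genes tested, and single genes ranged from 2.59 for Ramp2 to 9.93 for Sele. Of the 34, 30 rose by at least 5 log2 units, a size reached by 2.88% of tested genes. The 34 genes together took 0.896%, 1.03%, 0.985%, 1.28% and 1.07% of the counts in APC-mutant replicates 1, 2, 4, 5 and 6. Their shares were 0.0253%, 0.0288%, 0.0275%, 0.0308%, 0.0205% and 0.0176% in wildtype replicates 1 to 6. Ramp2, whose exons overlap another gene, supplied 5.58% to 6.52% of those counts in APC-mutant libraries and 29.0% to 57.7% in wildtype libraries. Without it the other members took 0.843% to 1.21% of counts in APC-mutant libraries and 0.00742% to 0.0219% in wildtype libraries. In bulk RNA, more endothelial cells in a sorted sample and more of these transcripts per cell cannot be told apart. Of the 34 genes, 24 averaged over 100 CPM in APC-mutant libraries, and 29 averaged under 10 CPM in wildtype libraries. These shares cover the 34 genes alone, and the share of all RNA that came from endothelial cells was not measured.

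**Figure D1:**
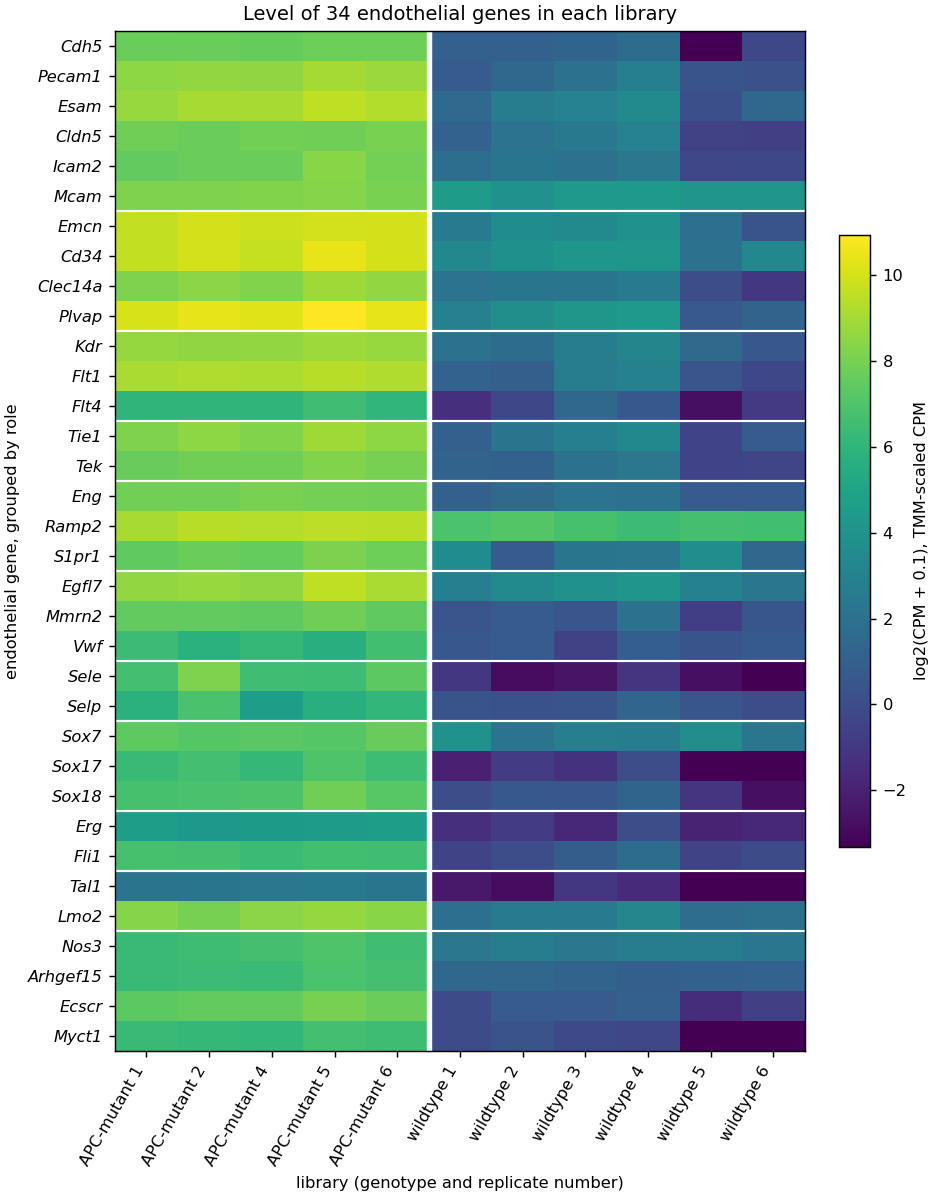
Heat map of log2(CPM + 0.1) for the 34 endothelial genes (vertical axis, grouped by role with white lines between groups) in each library (horizontal axis, the 5 APC-mutant libraries left of the 6 wildtype libraries), with brighter colour for a higher level. All 34 genes are brighter in every APC-mutant library than in any wildtype library, and Ramp2, with 666 ± 77.4 CPM in APC-mutant and 110.3 ± 17.8 CPM in wildtype libraries (SD), shows the smallest contrast.

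Promoter sequence is shown first for the members at the ends of this range. RefSeq promoter windows (GRCm38.p6, the 250 bases before an annotated start) were at hand for 17 of the 34 genes, in 22 windows. Among members with a window, Sele had the largest rise, Flt1 the next and Mcam the smallest. The windows lie at chr1:164047984-164048233 on the plus strand for Sele, chr5:147726012-147726261 on the minus strand for Flt1 and chr9:44134408-44134657 on the plus strand for Mcam. Capitals mark AGGAAG or CCGGAA on either strand, both of which contain the GGAA core that ETS factors recognise.
Sele: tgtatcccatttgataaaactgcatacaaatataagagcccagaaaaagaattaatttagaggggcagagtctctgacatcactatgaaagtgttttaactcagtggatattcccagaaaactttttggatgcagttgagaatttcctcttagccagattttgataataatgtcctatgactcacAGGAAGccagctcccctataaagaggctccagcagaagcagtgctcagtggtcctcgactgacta
Flt1: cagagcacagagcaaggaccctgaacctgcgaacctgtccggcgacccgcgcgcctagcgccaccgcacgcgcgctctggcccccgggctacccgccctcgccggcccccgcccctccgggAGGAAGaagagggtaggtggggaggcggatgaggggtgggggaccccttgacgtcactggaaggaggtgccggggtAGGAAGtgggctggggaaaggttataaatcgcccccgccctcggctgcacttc
Mcam: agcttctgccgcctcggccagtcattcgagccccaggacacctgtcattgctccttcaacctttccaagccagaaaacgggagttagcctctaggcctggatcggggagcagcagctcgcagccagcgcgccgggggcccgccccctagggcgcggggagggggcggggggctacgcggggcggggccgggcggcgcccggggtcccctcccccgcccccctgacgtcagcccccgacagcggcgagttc

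The Sele window held AGGAAG at 65 bases upstream of the start and a TATA box form (TATAAA) at 49 bases upstream. In the Flt1 window the same ETS form lay 129 and 53 bases upstream and the TATA form 31 bases upstream, and the Mcam window held no ETS form. Across the 22 member windows AGGAAG occurred in 10 (45.5%), against 29.5% of 32851 windows of all genes. These 10 windows belonged to 9 of the 17 genes (52.9%), against 32.3% of 27025 genes. The other ETS form occurred in 1 of the 22 (4.55%), that of Kdr, against 12.0% of all windows. Either form occurred in 11 of the 22 (50%), against 38.2% of all windows.

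Other motifs were searched on both strands in the same way. The SOX form AACAAT occurred in 3 of the 22 member windows (13.6%) and in 9.42% of all windows. The GATA form, spelled AGATAA, also occurred in 3 of the 22 (13.6%), and in 9.99% of all windows. The TATA form occurred in 4 of the 22 (18.2%) and in 12.4% of all windows, and the forkhead form GTAAACA in 0% of member windows and 3.17% of all windows. These counts are small, some windows belong to the same gene, and the differences were not tested. Both ETS forms share the same core, and the end of one motif can overlap the start of another. A match describes the sequence and not a bound site.

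The junction and adhesion genes rose together and by similar amounts, apart from Mcam. Cdh5 (ENSMUSG00000031871.10, chromosome 8, 104828257 to 104871143, GRCm39) encodes VE-cadherin, the adhesion molecule of endothelial adherens junctions. It measured 209, 203, 193, 219 and 225 CPM in APC-mutant replicates 1, 2, 4, 5 and 6, against a lowest value of 0, a median of 1.99 and a highest of 3.24 CPM in wildtype libraries. Mutant values varied little and the genotypes stood far apart, with a log2 fold change of 6.96 ± 0.47 (SE; edgeR adjusted p = 1.95e-08). Pecam1 (chromosome 11, 106545043 to 106641454), which encodes the junctional immunoglobulin protein CD31, measured 360, 391, 385, 521 and 436 CPM in APC-mutant libraries, against 1.08, 2.18 and 7.02 CPM as the lowest, median and highest wildtype values (7.17 ± 0.43, adjusted p = 6.53e-09). Esam, another junctional adhesion molecule, averaged 580 ± 127 CPM in APC-mutant libraries and 5.35 ± 3.86 CPM in wildtype libraries (SD; 6.77 ± 0.49, adjusted p = 3.64e-08).

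Cldn5, the main claudin of endothelial tight junctions, measured 234, 206, 243, 228 and 269 CPM in APC-mutant libraries, against 0.541, 3.22 and 7.93 CPM as the lowest, median and highest wildtype values (6.10 ± 0.53, adjusted p = 2.53e-07). Its 2 lowest wildtype values were those of replicates 5 and 6. Icam2, a ligand for leukocyte integrins, averaged 237 ± 59.5 CPM in APC-mutant libraries and 3.08 ± 1.91 CPM in wildtype libraries (6.27 ± 0.44, adjusted p = 2.88e-08). Mcam, which encodes CD146 and is also made by pericytes, was the exception in size. It measured 288, 291, 297, 320 and 268 CPM in APC-mutant libraries, against 15.04, 18.9 and 22.3 CPM as the lowest, median and highest wildtype values. The genotypes did not overlap, and the rise was 3.96 ± 0.12 (adjusted p = 3.33e-11).

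**Figure D2:**
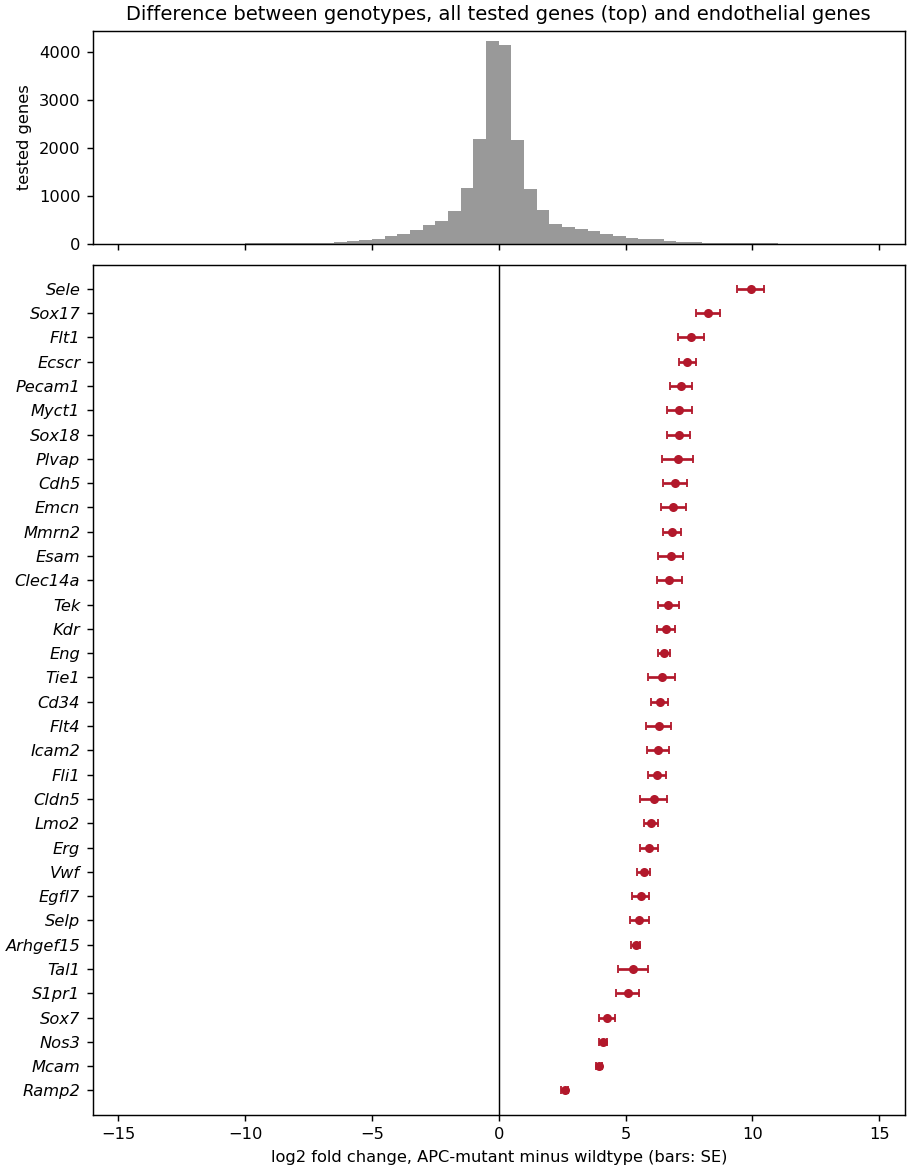
The upper panel is a histogram of the log2 fold change (APC-mutant minus wildtype) of the 20622 tested genes, and the lower panel gives the same measure for each of the 34 endothelial genes, sorted by size, with bars of 1 SE. The points run from 2.59 for Ramp2 to 9.93 for Sele, with Ramp2, Mcam, Nos3 and Sox7 the only ones below 5.

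Sialomucins and surface proteins of vessels held the most abundant member. Plvap (chromosome 8, 71950409 to 71964396), whose product builds the diaphragms of endothelial fenestrae, measured 1062, 1386, 1213, 1965 and 1384 CPM in APC-mutant replicates 1, 2, 4, 5 and 6, against 1.503, 10.2 and 20.4 CPM as the lowest, median and highest wildtype values. No other member took as many fragments in any mutant library, and the log2 fold change was 7.06 ± 0.62 (adjusted p = 2.72e-07). Emcn, an endothelial sialomucin prominent in veins and capillaries, averaged 955 ± 104 CPM in APC-mutant libraries and 8.11 ± 5.30 CPM in wildtype libraries (6.88 ± 0.50, adjusted p = 4.49e-08). Cd34, a sialomucin of endothelium and blood progenitors, averaged 1009 ± 237 CPM in APC-mutant libraries and 12.5 ± 5.50 CPM in wildtype libraries (6.34 ± 0.35, adjusted p = 3.14e-09). Clec14a, a lectin-like protein of endothelial cells, averaged 363 ± 77.5 CPM in APC-mutant libraries and 3.45 ± 2.25 CPM in wildtype libraries (6.73 ± 0.49, adjusted p = 4.8e-08). The 4 genes together made up 0.362% of counts in APC-mutant libraries and 0.0035% in wildtype libraries, on average.

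The receptors for VEGF rose as a full set. Flt1 (chromosome 5, 147498414 to 147662821), which encodes VEGFR1, measured 555, 615, 593, 683 and 603 CPM in APC-mutant libraries, against 0.738, 1.999 and 7.57 CPM as the lowest, median and highest wildtype values (7.56 ± 0.52, adjusted p = 2.2e-08). Kdr encodes VEGFR2, the main signalling receptor for VEGF-A. It measured 418, 377, 400, 469 and 435 CPM in APC-mutant libraries, against 1.38, 3.59 and 8.77 CPM in wildtype libraries in the same order (6.59 ± 0.37, adjusted p = 3.14e-09). Flt4 encodes VEGFR3 and is found in lymphatic and in sprouting or fenestrated blood endothelium. It measured 65.4, 63.9, 64.6, 94.5 and 67.0 CPM in APC-mutant libraries, against 0.0518, 0.6003 and 2.71 CPM as the lowest, median and highest wildtype values (6.30 ± 0.51, adjusted p = 1.13e-07). The highest Flt4 value among wildtype libraries was that of replicate 3, and without it the log2 fold change was 6.90.

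The angiopoietin receptor Tek (TIE2) and its partner Tie1 had similar rises. Tek measured 200, 229, 230, 299 and 256 CPM in APC-mutant libraries, against 0.622, 2.15 and 4.92 CPM as the lowest, median and highest wildtype values (6.69 ± 0.42, adjusted p = 1.09e-08). Tie1 averaged 360 ± 78.4 CPM in APC-mutant libraries and 4.23 ± 3.58 CPM in wildtype libraries (6.43 ± 0.53, adjusted p = 1.53e-07). Eng, the TGF-beta co-receptor endoglin, had the most even mutant values of all 34 genes, with a coefficient of variation of 5.08%, and averaged 246 ± 12.5 CPM in APC-mutant libraries and 2.73 ± 1.14 CPM in wildtype libraries (6.51 ± 0.24, adjusted p = 1.26e-10). S1pr1, the sphingosine-1-phosphate receptor that stabilises vessel junctions, measured 175, 214, 192, 274 and 223 CPM in APC-mutant libraries. In wildtype replicates 1 to 6 it measured 12.1, 1.63, 4.62, 4.68, 12.7 and 2.56 CPM, so replicates 1 and 5 stood highest (5.08 ± 0.46, adjusted p = 3.6e-07).

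Ramp2, the partner protein that makes a receptor for adrenomedullin, had the highest wildtype level per length. It measured 545, 683, 642, 746 and 711 CPM in APC-mutant libraries. In wildtype replicates 1 to 6 it measured 119, 140, 109, 88.5, 108 and 97.8 CPM (2.59 ± 0.13, adjusted p = 1.29e-09). A share of 33.4% of its exonic bases overlaps Vps25 on the same strand, and a fragment on both genes was counted for each. Vps25 averaged 147 ± 14.9 CPM in APC-mutant libraries and 105 ± 17.6 CPM in wildtype libraries (0.48 ± 0.12, adjusted p = 0.00371). The Ramp2 value exceeded the Vps25 value of the same library by 416 to 583 CPM in APC-mutant libraries and by 0.933 to 8.45 CPM in wildtype libraries. Wildtype Ramp2 was thus close to Vps25 in each of the 6 libraries, and how many of its fragments were shared was not tested.

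Secreted and matrix proteins of vessels rose too. Egfl7, a matrix protein that guides vessel assembly and hosts an endothelial microRNA, averaged 504 ± 155 CPM in APC-mutant libraries and 10.5 ± 4.86 CPM in wildtype libraries (5.60 ± 0.33, adjusted p = 6.53e-09). The gene Gm20532 overlaps 11.2% of its exonic bases on the same strand and averaged 251 CPM in APC-mutant libraries and 14.7 CPM in wildtype libraries. The Egfl7 value minus the Gm20532 value of the same library was 192 to 379 CPM in APC-mutant libraries and -8.47 to 0.66 CPM in wildtype libraries. How many fragments the genes shared was not tested. Mmrn2, which binds CLEC14A on endothelial cells, averaged 190 ± 23.5 CPM in APC-mutant libraries and 1.68 ± 1.21 CPM in wildtype libraries (6.83 ± 0.35, adjusted p = 1.43e-09). Vwf, the clotting protein stored in Weibel-Palade bodies, measured 87.1, 54.2, 72.7, 50.4 and 99.9 CPM in APC-mutant libraries, against 0.594, 1.46 and 1.80 CPM as the lowest, median and highest wildtype values (5.72 ± 0.26, adjusted p = 6.44e-10). Its lowest mutant value was that of replicate 5, the library in which most other members were highest.

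The selectins were the most uneven members among mutant libraries. Sele (chromosome 1, 163875773 to 163885246), the E-selectin that endothelium displays after cytokine stimulation, measured 103, 290, 96.0, 90.4 and 161 CPM in APC-mutant replicates 1, 2, 4, 5 and 6. The wildtype libraries, numbered 1 to 6, had 8, 1, 1, 6, 1 and 0 Sele counts. It had the largest log2 fold change of the 34, 9.93 ± 0.54 (adjusted p = 2.51e-09), and 10.54 without wildtype replicate 1. Selp, the P-selectin that is stored in endothelial cells and platelets, measured 55.0, 114, 25.2, 50.5 and 70.0 CPM in APC-mutant libraries, against 0.985, 1.195 and 2.40 CPM as the lowest, median and highest wildtype values (5.54 ± 0.37, adjusted p = 1.78e-08). Both selectins were highest in APC-mutant replicate 2 and next highest in replicate 6. Of the exonic bases of Selp, 14.1% overlap the antisense gene Gm16548, which averaged 9.31 CPM in APC-mutant libraries and 1.61 CPM in wildtype libraries. The Selp value minus the Gm16548 value of the same library was 21.8 to 98.6 CPM in APC-mutant libraries and -0.901 to 0.0492 CPM in wildtype libraries. Strand was not used in counting, and how many wildtype Selp fragments were shared was not tested.

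**Figure D3:**
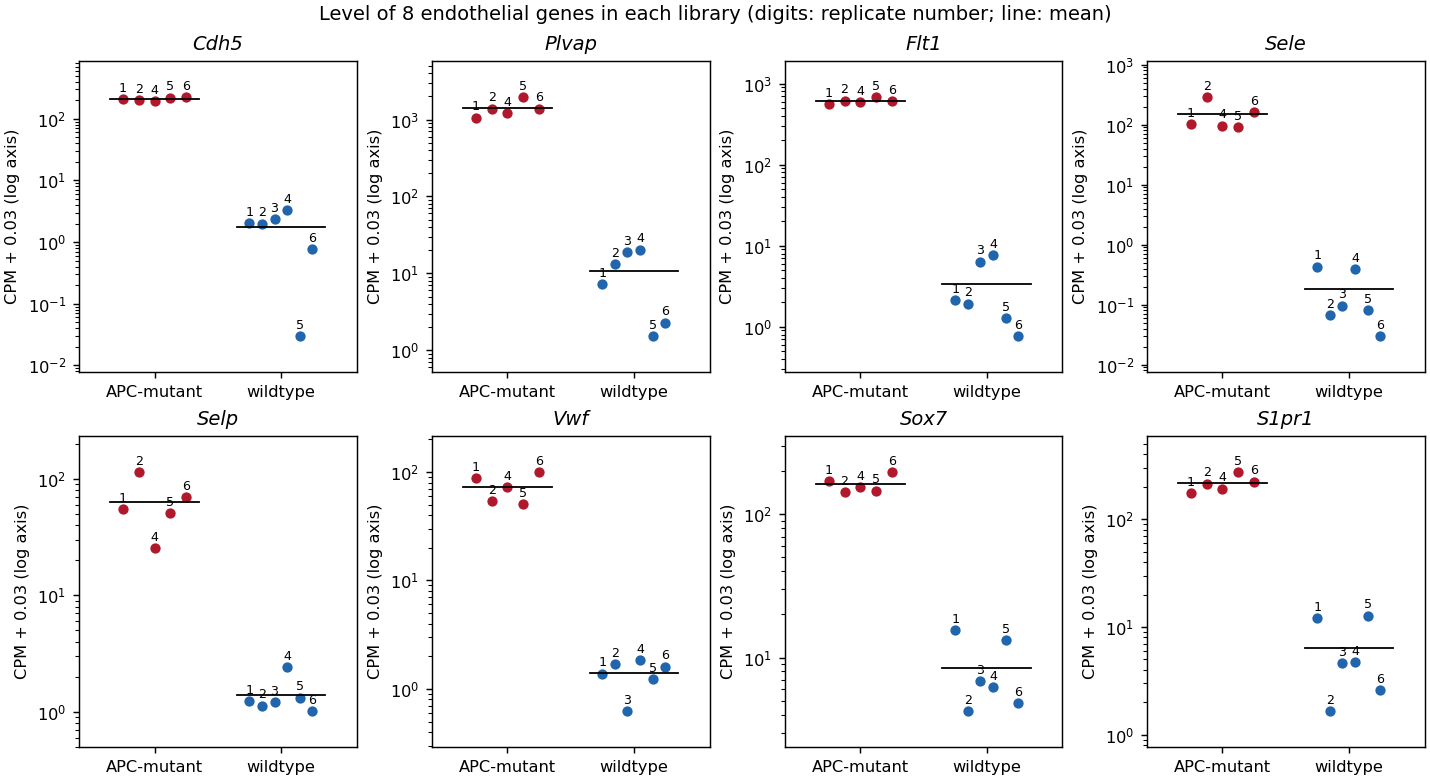
CPM + 0.03 on a log axis for 8 of the 34 genes (Cdh5, Plvap, Flt1, Sele, Selp, Vwf, Sox7 and S1pr1), APC-mutant left of wildtype, with 1 point per library, its replicate number beside it and a line at the mean. Sele and Selp are highest in APC-mutant replicate 2, at 290 and 114 CPM, and Sox7 and S1pr1 are highest among wildtype libraries in replicates 1 and 5.

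The SOXF transcription factors, which set endothelial and arterial identity, split in size. Sox17 measured 80.4, 100.4, 72.4, 130 and 91.7 CPM in APC-mutant libraries. It had 3, 12, 5, 16, 0 and 0 counts in wildtype replicates 1 to 6. Its ratio of normalised totals was 319 (95% counting interval 230 to 456), and the log2 fold change was 8.24 ± 0.48 (adjusted p = 5.26e-09), or 8.87 without wildtype replicate 4. An antisense gene, Gm37587, overlaps 16.8% of its exonic bases and averaged 3.33 CPM in APC-mutant libraries and 0 CPM in wildtype libraries. Sox18 averaged 145 ± 49.5 CPM in APC-mutant libraries and 1.08 ± 0.822 CPM in wildtype libraries (7.09 ± 0.47, adjusted p = 1.64e-08). Sox7 measured 170, 144, 155, 147 and 197 CPM in APC-mutant libraries, against 15.4, 4.20, 6.80, 6.18, 13.2 and 4.77 CPM in wildtype replicates 1 to 6 (4.27 ± 0.32, adjusted p = 5.34e-08). As for S1pr1, its highest wildtype libraries were replicates 1 and 5. The posterior-lobe and glial markers were also highest in those libraries, with 0.0416% and 0.0505% of counts against at most 0.0151% in the other wildtype libraries, and their part in the Sox7 and S1pr1 levels was not tested.

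Transcription factors of the ETS family and those shared with blood progenitors rose as well, from low wildtype levels. Erg, an ETS factor that maintains endothelial identity, measured 24.7, 19.6, 21.95, 23.7 and 24.5 CPM in APC-mutant libraries, against 0.155, 0.249 and 0.961 CPM as the lowest, median and highest wildtype values (5.91 ± 0.35, adjusted p = 6.31e-09). Fli1, an ETS factor of endothelium and blood, averaged 99.2 ± 10.8 CPM in APC-mutant libraries and 1.35 ± 1.004 CPM in wildtype libraries (6.24 ± 0.35, adjusted p = 3.18e-09). Tal1, a factor needed for blood and endothelial development, was the scarcest member. It measured 4.42, 4.53, 5.03, 5.38 and 4.52 CPM in APC-mutant libraries and had 2, 1, 6, 4, 0 and 0 counts in wildtype replicates 1 to 6. Its log2 fold change was 5.29 ± 0.58 (adjusted p = 2.71e-06), or 5.97 without wildtype replicate 3, and its ratio of normalised totals was 43.6 (95% counting interval 25.3 to 82.5). Lmo2, its partner protein, averaged 337 ± 57.9 CPM in APC-mutant libraries and 5.31 ± 2.46 CPM in wildtype libraries (5.99 ± 0.28, adjusted p = 6.95e-10).

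The remaining signalling and surface genes rose too. Nos3, the endothelial nitric oxide synthase, averaged 98.7 ± 18.8 CPM in APC-mutant libraries and 5.68 ± 0.807 CPM in wildtype libraries (4.12 ± 0.15, adjusted p = 1.26e-10). The antisense gene Gm15587 overlaps 32.3% of its exonic bases, averaged 67.4 CPM in APC-mutant libraries and 1.45 CPM in wildtype libraries, and cannot be told apart from Nos3 there, since strand was not used in counting. Arhgef15, a guanine exchange factor of vessels, had the smallest adjusted p of the members, 2.17e-11, with 95.7 ± 17.5 CPM in APC-mutant libraries and 2.27 ± 0.326 CPM in wildtype libraries (5.39 ± 0.16). Ecscr, an endothelial surface protein, averaged 197 ± 35.7 CPM in APC-mutant libraries and 1.14 ± 0.687 CPM in wildtype libraries (7.44 ± 0.35, adjusted p = 6.86e-10). Myct1 averaged 83.1 ± 13.9 CPM in APC-mutant libraries and 0.583 ± 0.473 CPM in wildtype libraries (7.12 ± 0.49, adjusted p = 2.66e-08).

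Levels can be set side by side between genes only per length, taken over all annotated exons of a gene. Per kilobase, Plvap stood first in APC-mutant libraries, at 705 ± 172 CPM per kb. Esam and Ramp2 followed, each at 202 CPM per kb, then Emcn at 177, Cldn5 at 167 and Lmo2 at 155 CPM per kb, all as mutant means. Esam and Ramp2 differed by less than the SD between libraries, as did Emcn from Cldn5 and Cldn5 from Lmo2, whereas Plvap was above them all in each of the 5 APC-mutant libraries. At the low end of the mutant means stood Tal1 at 1.09, Vwf at 4.54, Erg at 6.60 and Flt4 at 8.64 CPM per kb. In wildtype libraries Ramp2 led at 33.4 CPM per kb, followed by Mcam at 5.64 and Plvap at 5.32 CPM per kb. Before division by length, wildtype Ramp2 was close to the CPM of the overlapping Vps25, and the share of common fragments was not tested.

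Within the APC-mutant group the members tended to be high in the same library. Replicate 5 was the highest mutant library for 24 of the 34 genes (70.6%), against 29.3% of tested genes, and replicate 1 the lowest for 17 of them (50%), against 23.8%. Sele, Selp and Vwf were among those that departed from this, with replicate 5 lowest for Sele and Vwf. The median coefficient of variation over mutant libraries was 17.4% for the members and 12.3% over the 11364 tested genes with at least 10 CPM in APC-mutant libraries, a floor that 33 members met. In 3 members, Sele, Selp and Sox18, the highest mutant library exceeded the lowest by a factor of more than 2.

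Wildtype libraries also had an order. Replicate 4 was the highest for 23 of the 34 genes (67.6%), against 19.8% of tested genes. Replicate 5 was the lowest for 15 (44.1%, against 19.6%) and replicate 6 for 12 (35.3%, against 14.1%), where a tie at 0 was counted for replicate 5. In 20 of the 34 genes both ROSAE libraries, replicates 5 and 6, lay below all 4 ROSAJC libraries, as for 7.57% of tested genes, and in none did both lie above all 4, as for 7.91% of tested genes. The median ratio of the ROSAJC mean to the ROSAE mean was 2.72 over the 31 genes with a count in a ROSAE library, and 3.56 over all 34 when Sox17, Tal1 and Myct1, which had none, are ranked highest. The 14 genes in which the prefixes overlapped included S1pr1, Sox7, Ramp2, Mcam, Vwf and both selectins. Against ROSAJC libraries alone the median log2 fold change of the 34 genes was 5.97, and against ROSAE libraries alone it was 8.18, with all 34 called higher either way.

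**Figure D4:**
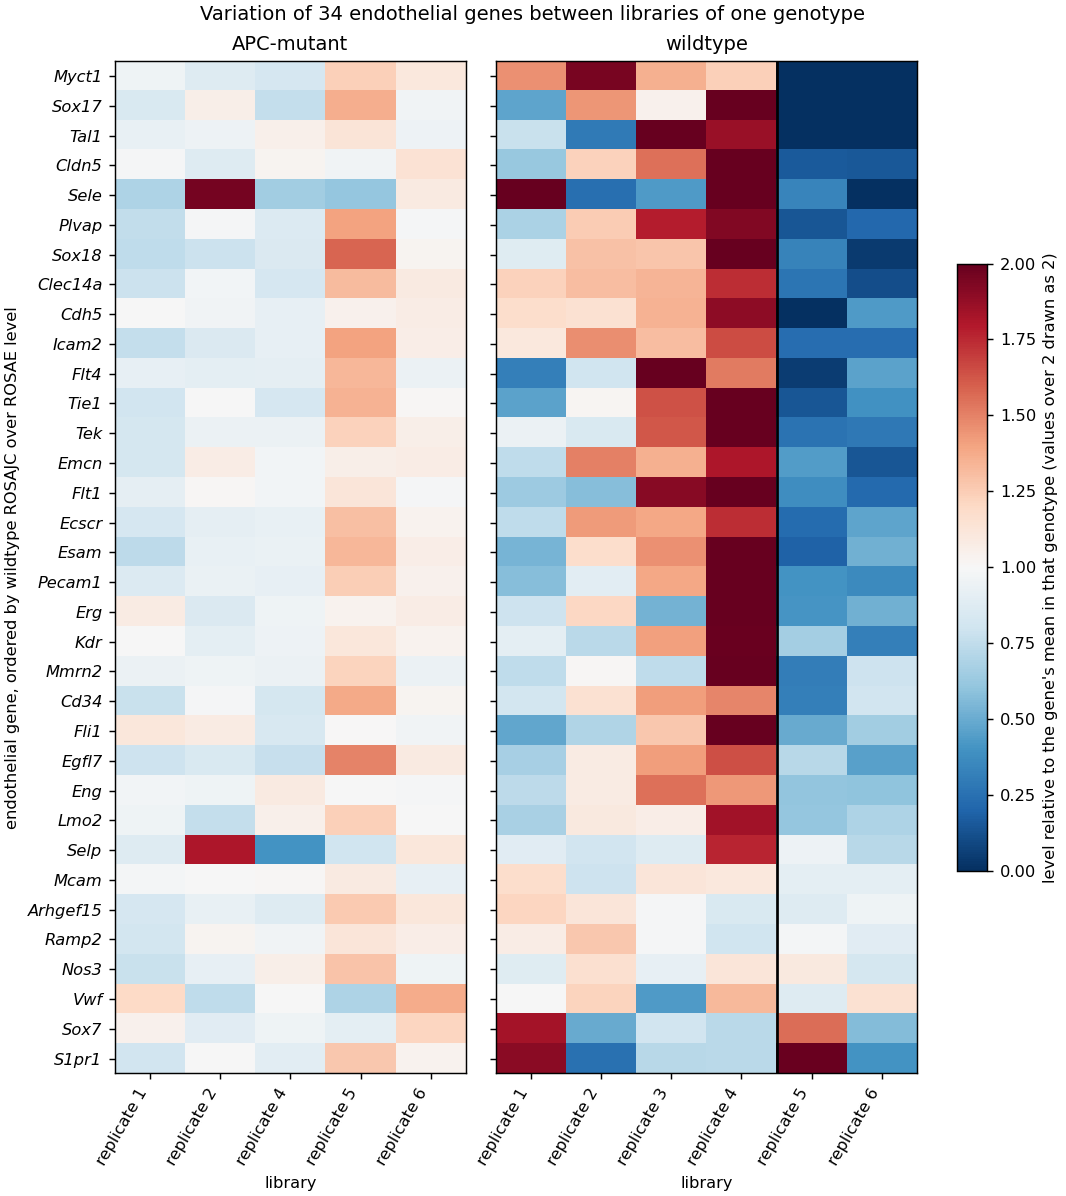
Heat maps of each library's level divided by the gene's mean in the same genotype, for the 34 genes (vertical axis, ordered by the ratio of ROSAJC to ROSAE levels), with the 5 APC-mutant libraries in the left panel, the 6 wildtype libraries in the right panel, and values over 2 drawn as 2. The black line in the right panel parts the ROSAJC libraries (1 to 4) from the ROSAE libraries (5 and 6), which hold the lowest wildtype value in 27 of the 34 genes.

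Markers of vessel subtypes had smaller median changes than the 34 identity genes, a difference that was not tested. Of 10 arterial genes 9 were tested and all 9 rose, with a median log2 fold change of 2.98, and all 8 venous genes rose, with a median of 4.01. Ephb4, the venous receptor for ephrin-B2, averaged 141 ± 28.5 CPM in APC-mutant libraries and 24.5 ± 5.75 CPM in wildtype libraries (2.53 ± 0.18, adjusted p = 2.69e-08), and Efnb2, the arterial ligand, averaged 111 ± 6.79 CPM in APC-mutant libraries and 42.0 ± 12.2 CPM in wildtype libraries (1.40 ± 0.17, adjusted p = 8.55e-06). Among 7 tested lymphatic genes 4 rose and 2 fell (median 0.77). Prox1, the lymphatic master regulator that other pituitary cells also make, averaged 93.0 ± 21.9 CPM in APC-mutant libraries and 54.7 ± 12.4 CPM in wildtype libraries (0.77 ± 0.19, adjusted p = 0.00275). Lyve1, a hyaluronan receptor of lymphatics and macrophages, averaged 4.30 ± 3.55 CPM in APC-mutant libraries and 1.63 ± 1.16 CPM in wildtype libraries (1.39 ± 0.56, adjusted p = 0.0453). Its call was lost in 11 alternatives, among them without APC-mutant replicate 2, where it was 0.77 with adjusted p = 0.23.

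Of 12 capillary and barrier genes 7 rose and 2 fell (median 1.11). Itm2a rose to 609 ± 114 CPM in APC-mutant libraries, against 42.5 ± 16.45 CPM in wildtype libraries (3.84 ± 0.25, adjusted p = 1.2e-08), whereas Slc2a1, the glucose transporter of barrier capillaries, was not called (0.05, adjusted p = 0.888). The 2 that fell were Ocln, which epithelia also make (-1.13 ± 0.11, adjusted p = 7.81e-07), and Bsg (-0.38 ± 0.13, adjusted p = 0.0204), whose call was lost without APC-mutant replicate 2 (adjusted p = 0.0614) or 4 (adjusted p = 0.0596), against the ROSAE libraries alone (-0.16, adjusted p = 0.354) and with replicate numbers as a block (-0.30, adjusted p = 0.119). Among 12 tip-cell and sprouting genes 10 rose and 1 fell (median 2.40). Aplnr, the apelin receptor, reached 671 ± 183 CPM in APC-mutant libraries, against 6.99 ± 6.84 CPM in wildtype libraries (6.59 ± 0.81, adjusted p = 7.54e-06), and its ligand Apln reached 32.4 ± 5.56 CPM in APC-mutant libraries, against 5.78 ± 1.17 CPM in wildtype libraries (2.49 ± 0.18, adjusted p = 3.2e-08). Esm1 ran the other way, with 23.5 ± 3.19 CPM in APC-mutant libraries and 75.1 ± 23.4 CPM in wildtype libraries (-1.67 ± 0.21, adjusted p = 9.77e-06). In a wider list of 42 further endothelial genes 41 were tested and 40 rose, with a median of 4.85, and Ece1 was the only one not called (0.18, adjusted p = 0.276).

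The ligands of the VEGF and TIE receptors were mixed. Of 9 tested VEGF and angiopoietin ligands 4 rose and 3 fell, with a median log2 fold change of 0.08. Vegfa averaged 58.5 ± 10.9 CPM in APC-mutant libraries and 40.2 ± 9.13 CPM in wildtype libraries (0.54 ± 0.18, adjusted p = 0.0165, or 0.0648 against the ROSAE libraries alone), and Pgf, which binds VEGFR1, averaged 83.9 ± 21.5 CPM in APC-mutant libraries and 30.0 ± 10.2 CPM in wildtype libraries (1.48 ± 0.22, adjusted p = 4.49e-05). Angpt1, the ligand that activates TIE2, averaged 19.0 ± 3.22 CPM in APC-mutant libraries and 45.3 ± 12.8 CPM in wildtype libraries (-1.26 ± 0.20, adjusted p = 9.17e-05). Vegfb and Vegfd fell too, by 0.752 and 1.504 on the log2 scale (adjusted p = 5.77e-05 and 0.000183).

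Most markers of macrophages, pericytes and mesenchymal cells were higher in the same libraries, and their part in the endothelial result was not tested. Posterior-lobe and glial markers were not: of 9 tested genes 0 rose and 1, Mbp, fell (median -0.63). They took 0.0074% to 0.0148% of counts in APC-mutant libraries and 0.00717% to 0.0505% in wildtype libraries. All 12 macrophage markers rose (median 4.34), and they took 0.034%, 0.21%, 0.0819%, 0.031% and 0.172% of counts in APC-mutant replicates 1, 2, 4, 5 and 6, against 0.00242% to 0.00749% in wildtype libraries. Of 12 pericyte and mural genes 9 rose (median 3.11), among them Rgs5 at 61.3 ± 46.4 CPM in APC-mutant libraries and 1.09 ± 0.421 CPM in wildtype libraries (5.80 ± 0.53, adjusted p = 4.03e-07). The 12 genes took 0.0742%, 0.0364%, 0.0711%, 0.0185% and 0.0421% of counts in APC-mutant libraries, against 0.00914% to 0.0157% in wildtype libraries. Tagln, Myh11 and Ndufa4l2 were not called. Ndufa4l2, which weighed heavily in the wildtype share, averaged 53.2 ± 19.8 CPM in APC-mutant libraries and 82.3 ± 28.1 CPM in wildtype libraries (-0.63 ± 0.28, adjusted p = 0.0625). It was called lower in 5 of 20 alternatives. All 9 tested mesenchymal genes rose (median 3.77), at 0.189%, 0.317%, 0.18%, 0.0715% and 0.204% of counts in APC-mutant libraries, against 0.0126% to 0.0271% in wildtype libraries. The macrophage, pericyte and mesenchymal lists were lowest in APC-mutant replicate 5, the library in which 24 of the endothelial genes were highest. Sele and Selp, by contrast, were highest in replicate 2, where the macrophage and mesenchymal shares were highest.

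Blood markers were added because several members are shared with blood cells. Of 10 erythroid genes 9 rose (median 7.63), at 0.209% to 0.391% of counts in APC-mutant libraries and 0.000488% to 0.00396% in wildtype libraries. Of 8 tested leukocyte and blood progenitor genes 5 rose and 1 fell (2 fell without wildtype replicate 1; median 4.06), and Ptprc, the pan-leukocyte CD45, measured 5.01, 37.7, 15.8, 2.71 and 31.1 CPM in APC-mutant libraries, against 0 to 0.689 CPM in wildtype libraries (5.80 ± 0.77, adjusted p = 1.68e-05). Megakaryocytes and platelets also make Selp and Vwf. Of 10 genes listed for these cells 5 were tested and 2 rose, Pf4 (5.48 ± 0.51, adjusted p = 5.21e-07) and Ppbp (4.37 ± 1.12, adjusted p = 0.00388), whose call was lost against the ROSAE libraries alone (adjusted p = 0.148). That count was 4 without APC-mutant replicate 1, 5 without APC-mutant replicate 5 and 1 without wildtype replicate 5. Itga2b, the defining platelet integrin, averaged 8.98 ± 3.62 CPM in APC-mutant libraries and 9.84 ± 1.93 CPM in wildtype libraries and was not called (-0.13, adjusted p = 0.664). Against these, all 12 hormone-producing cell genes fell (median -6.81), to 0.0158% to 0.14% of counts in APC-mutant libraries, against 6.13% to 9.74% in wildtype libraries. Pituitary stem cell markers were mixed, with 3 of 12 higher (0 without APC-mutant replicate 1, and 1 without APC-mutant replicate 2, wildtype replicate 2 or wildtype replicate 6) and 5 lower (median -0.14), at 0.0997% to 0.134% of counts in APC-mutant libraries and 0.174% to 0.241% in wildtype libraries.

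**Figure D5:**
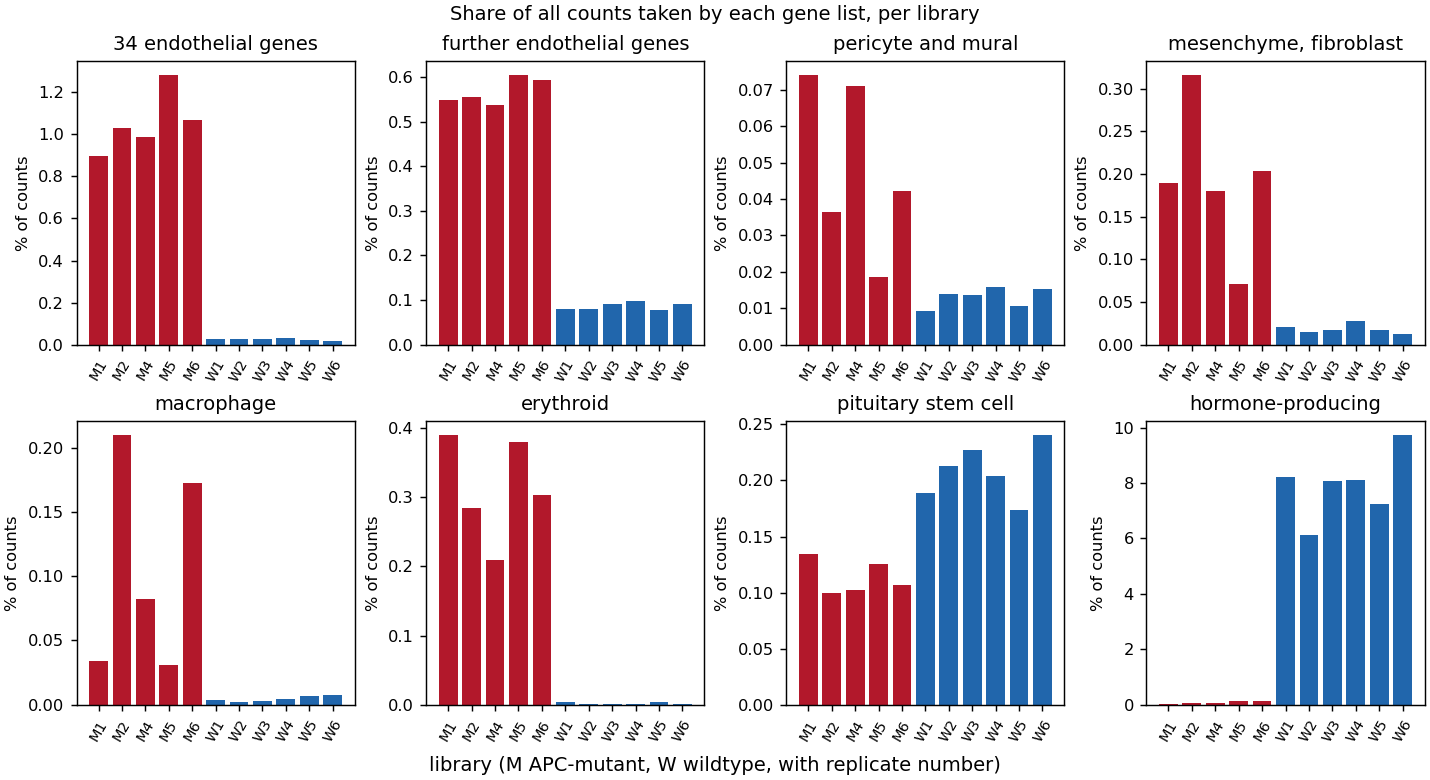
Percent of each library's counts (linear axis from 0, with its own scale in each panel) taken by the 34 endothelial genes and by 7 marker lists, with 1 bar per library, APC-mutant (red, M) left of wildtype (blue, W). The 34 genes took 0.896% to 1.28% of counts in APC-mutant libraries and 0.0176% to 0.0308% in wildtype libraries, whereas hormone-producing cell genes took 0.0158% to 0.14% in APC-mutant libraries and 6.13% to 9.74% in wildtype libraries.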

How the data were processed

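The deposited values are raw counts of fragments per gene, made by the authors, per the file headers, with featureCounts 2.0.1 on the GENCODE M33 annotation of GRCm39, without strand and with a pair that overlaps several genes counted for each. The submitters' processing notes also name STAR 2.7.9a and Trim Galore 0.6.5. Gene symbols matched 51948 identifiers (91.2%, carrying 98.6% of counts), and coordinates are those of the deposited table.

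Genes were filtered with filterByExpr, scaled by TMM and tested for genotype with edgeR 4.0.16 (R 4.3.3), with Benjamini-Hochberg adjustment over all 20622 tested genes. Log2 fold changes give APC-mutant relative to wildtype with SE, and levels are means ± SD over 5 and 6 libraries. Each SE was worked back from the test and not fitted directly. It is the absolute log2 change over the root of the gene's quasi-likelihood F. Such an SE is approximate, above all where wildtype counts were near 0, as for Sele and Tal1. A count of 0 allows up to 3 counts, or 0.11 to 0.191 CPM per library, and this limit, like the 95% intervals given with ratios, reflects counting alone, since amplified fragments are not independent molecules.

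The 34 genes, the marker lists and the tests were chosen with earlier results of these data known. Members are all named. Of the lists, the genes named and those running against their group were partly picked with values in view, and a few genes sit on several lists. Promoter windows are RefSeq's (GRCm38.p6). Alternatives used DESeq2 1.42.0, limma-voom 3.58.1, other size factors and filters, wildtype prefixes separately, each library left out, and a replicate block. Chi-square per degree of freedom between libraries of 1 genotype was 14.2 to 94.4, so none was a duplicate.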

Additional observations from a re-analysis of the deposited data

Results flagged for a closer look

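In 5 of 68 sets of values (7.35%), 1 library stood apart from the others of its genotype by Dixon's test. There was 1 set for each of the 34 genes in each genotype. The test's nominal rate of about 1 in 20 holds for independent, normally spread values. The 34 genes varied together between libraries, so that rate is no measure of chance here. No library stood apart in 34 sets of list shares tested in the same way. APC-mutant replicate 5 stood apart for Flt4 (94.5 CPM, next 67.0 CPM) and for Mmrn2 (232 CPM, next 181 CPM). Wildtype replicate 4 stood apart for Mmrn2 (4.02 CPM, next 1.70 CPM), Selp (2.40 CPM, next 1.30 CPM) and Erg (0.961 CPM, next 0.454 CPM). Gm16548, which overlaps Selp, was also highest among wildtype libraries there, at 3.30 CPM. In all 5 cases the library was the highest of its genotype, and APC-mutant replicate 5 and wildtype replicate 4 were also the libraries in which most of the 34 genes were highest.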

How the results depend on the processing

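Over 20 alternative fits, all 34 genes kept their direction and their call in each (680 of 680 values, largest adjusted p = 0.000123). Their median log2 fold change lay between 6.14 and 6.66 when single libraries were left out, and was 6.34 with DESeq2, 6.79 with voom and 6.33 without TMM scaling. With the ROSAE libraries as the only wildtype ones it was 8.18; the cause was not tested. Without Ramp2, an alternative chosen after seeing the data, the members' mean share of counts was 0.989% in APC-mutant libraries (1.05% with it) and 0.0138% in wildtype libraries (0.0251% with it). Calls over all genes ranged from 10652 to 14094. Deviations of same-numbered libraries from their genotype means were hardly correlated (-0.168 to 0.0412), which cannot show if the numbers pair libraries. With the replicate block the median was 6.80 and 10711 genes were called. Without division by length, 6 of the 10 highest members in APC-mutant libraries were shared with the per-length order, by construction. Of 640 counts over other lists, 606 stayed within 1.5 times. The platelet list changed most, with 7 genes higher under DESeq2 or without the filter. Depth limits Tal1, Sele and Sox17 in wildtype libraries.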
